A study of Mus musculus with 7 samples.

Results

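The 8 genes described here encode the core of MHC class II antigen presentation: the invariant chain gene Cd74, the class II chain genes H2-Aa, H2-Ab1 and H2-Eb1, the peptide exchange genes H2-DMa and H2-DMb1, the protease gene Ctss and the transactivator gene Ciita. They were chosen by gene symbol, with no measured value in the rule, but with earlier results of these data known. All 8 were among the 16019 genes of the expression tables. The tissue was prostate from mice with experimental autoimmune prostatitis, a model in which an immune reaction against the gland is induced. Of the 7 RNA-seq libraries, 4 came from mice given LIT927, a compound that neutralises the chemokine CXCL12 by binding it, at 25 mg/kg per day intraperitoneally. The other 3 came from mice given its solvent, methyl-β-cyclodextrin, called vehicle here, and both groups were injected for 14 days. The sources used here give no strain, age or number of animals per library, and all mice of both groups carried the prostatitis. The labels do not say that each library is a separate animal, so p-values speak only to the variation among these 7 samples, some of which may be technical. Levels are FPKM, fragments scaled to gene length and library size, as the authors computed them.

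Depth was even, with 32023785 to 35240765 whole fragments recovered per library. The pieces of tissue were not alike. Summed transcripts of 4 uroplakins, proteins of the bladder and urethral lining, were at 325 FPKM in LIT927 replicate 3 and at 261 FPKM in vehicle replicate 3, against 26.7 to 43.6 FPKM in the other 5 libraries. Seminal vesicle transcripts, summed over 7 genes, ranged from 142306 to 299696 FPKM with LIT927 and from 50975 to 550007 FPKM with vehicle. All 9 luminal prostate markers were measured, and each exceeded 1 FPKM somewhere. Sbp was at 114916 FPKM in LIT927 replicate 3 and 53139 FPKM in vehicle replicate 3, against at most 5316 FPKM elsewhere. Msmb was at 337 and 1020 FPKM in those libraries, against 2.83 to 6.62 FPKM elsewhere. Replicate 3 of both groups thus also stood apart in some luminal transcripts. Pbsn had another order, from 129 FPKM in LIT927 replicate 2 to 11311 FPKM in vehicle replicate 1. Krt8, at 108 to 187 FPKM, varied far less. Scaling factors that equalise the median gene, by median of ratios, were 0.813 to 1.16 with LIT927, and 1.31, 1.08 and 0.665 in vehicle replicates 1, 3 and 4, so vehicle replicate 1 lay high and vehicle replicate 4 low for most genes.

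Class II molecules show peptides from the endosomal pathway to CD4+ T cells. An alpha and a beta chain (H2-Aa with H2-Ab1, or an E alpha chain with H2-Eb1) assemble in the endoplasmic reticulum with the invariant chain, which blocks the groove and directs the complex to endosomes. There cathepsin S trims the invariant chain down to a fragment, and the H2-DM dimer exchanges that fragment for antigenic peptide. Transcription of these genes is set largely by the coactivator CIITA, which binds no DNA itself and acts through a complex of RFX, CREB and NF-Y proteins on paired sequence elements, the X and Y boxes. Dendritic cells, macrophages and B cells carry the pathway at rest, and interferon gamma can induce it in epithelium and endothelium.

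Promoter sequence from RefSeq (build GRCm38.p6, which is mm10) was matched for 5 of the 8 genes. The stretches below, 5′ to 3′ on the gene's strand, are shown because the first pair hold letters of the X and Y boxes through which class II genes are read together, and Ctss letters of an interferon response element. In H2-Aa and H2-Eb1, capitals mark a match to CTNGNNAC, within the X box, and a match to ATTGG, the Y box core (CCAAT on the other strand).
H2-Aa, chr17:34287852-34287932, minus strand: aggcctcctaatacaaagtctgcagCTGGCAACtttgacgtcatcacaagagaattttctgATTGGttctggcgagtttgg
H2-Eb1, chr17:34305748-34305827, plus strand: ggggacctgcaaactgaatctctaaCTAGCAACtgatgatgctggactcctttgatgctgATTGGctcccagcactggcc
Ctss, chr3:95526705-95526785, plus strand: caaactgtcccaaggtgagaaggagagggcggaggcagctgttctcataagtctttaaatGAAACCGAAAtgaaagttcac
In Ctss the capitals mark a pair of GAAA repeats 2 bases apart, the core letters of an interferon-stimulated response element, 21 to 12 bases before the gene start.

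The X letters began 84 bases before the start of H2-Aa and 94 before that of H2-Eb1, and 28 and 27 bases lay between them and the Y letters. The RefSeq window of H2-DMb1 also held both, 28 bases apart, with the X letters 97 bases before the RefSeq start. GENCODE M21 starts that gene farther upstream, so that by its annotation these letters lie in the first exon, and they are not shown. CTNGNNAC followed by ATTGG within 45 bases on the gene's strand was found in 0.962% of the 32851 promoters of the table. A stricter X pattern, CCTNGNNAC, gave the pair in H2-DMb1 alone of these genes and in 0.301% of all promoters. The shorter letters were set after the class II sequences had been read. CCAAT on either strand stood in 37.4% of promoters, and the pair of GAAA repeats on either strand in 3.44%. Those repeats were also searched for only after sequences had been read. Neither of the 2 promoter windows of H2-DMa held the X and Y letters in that order, nor did the window of Ctss.

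Cd74 (chromosome 18, 60803848 to 60812652, plus strand) was the most abundant of the 8. It stood at 66.5, 89.0, 42.0 and 107 FPKM in LIT927 replicates 1 to 4, and at 318, 102 and 397 FPKM in vehicle replicates 1, 3 and 4. Vehicle replicates 1 and 4 stood well above every other library, and vehicle replicate 3 lay inside the LIT927 range. Its mean was 76.2 ± 28.3 FPKM (SD, n = 4) with LIT927 and 272 ± 153 FPKM (SD, n = 3) with vehicle. The difference in log2(FPKM + 1), LIT927 minus vehicle, was -1.69 (SE 0.52, 95% interval -2.91 to -0.47), which did not pass limma's test across all genes (Benjamini-Hochberg adjusted p = 0.998). In bulk tissue, fewer cells carrying a transcript and less of it per cell cannot be told apart, here and for every gene below.

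The 3 class II chains followed the same order of libraries, apart from which of vehicle replicates 1 and 4 was highest. H2-Aa, the A alpha chain (chromosome 17, 34282744 to 34287823, minus strand), was at 27.3, 33.5, 16.3 and 41.0 FPKM in LIT927 replicates 1 to 4, and at 121, 40.4 and 116 FPKM in vehicle replicates 1, 3 and 4. The groups overlapped only by LIT927 replicate 4 lying just above vehicle replicate 3. H2-Ab1, its beta partner (chromosome 17, 34257689 to 34269419, plus strand), was at 21.9, 25.9, 10.7 and 29.5 FPKM with LIT927, and at 89.6, 27.1 and 108 FPKM with vehicle. H2-Eb1, the E beta chain (chromosome 17, 34305867 to 34316674, plus strand), was at 21.9, 27.3, 12.0 and 35.3 FPKM with LIT927, and at 102, 31.8 and 98.5 FPKM with vehicle. For both beta chains LIT927 replicate 4 was again the single LIT927 library above vehicle replicate 3. The differences were -1.53 (SE 0.46) for H2-Aa, -1.59 (SE 0.53) for H2-Ab1 and -1.56 (SE 0.50) for H2-Eb1, each with a limma adjusted p of 0.998.

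**Figure D1:**
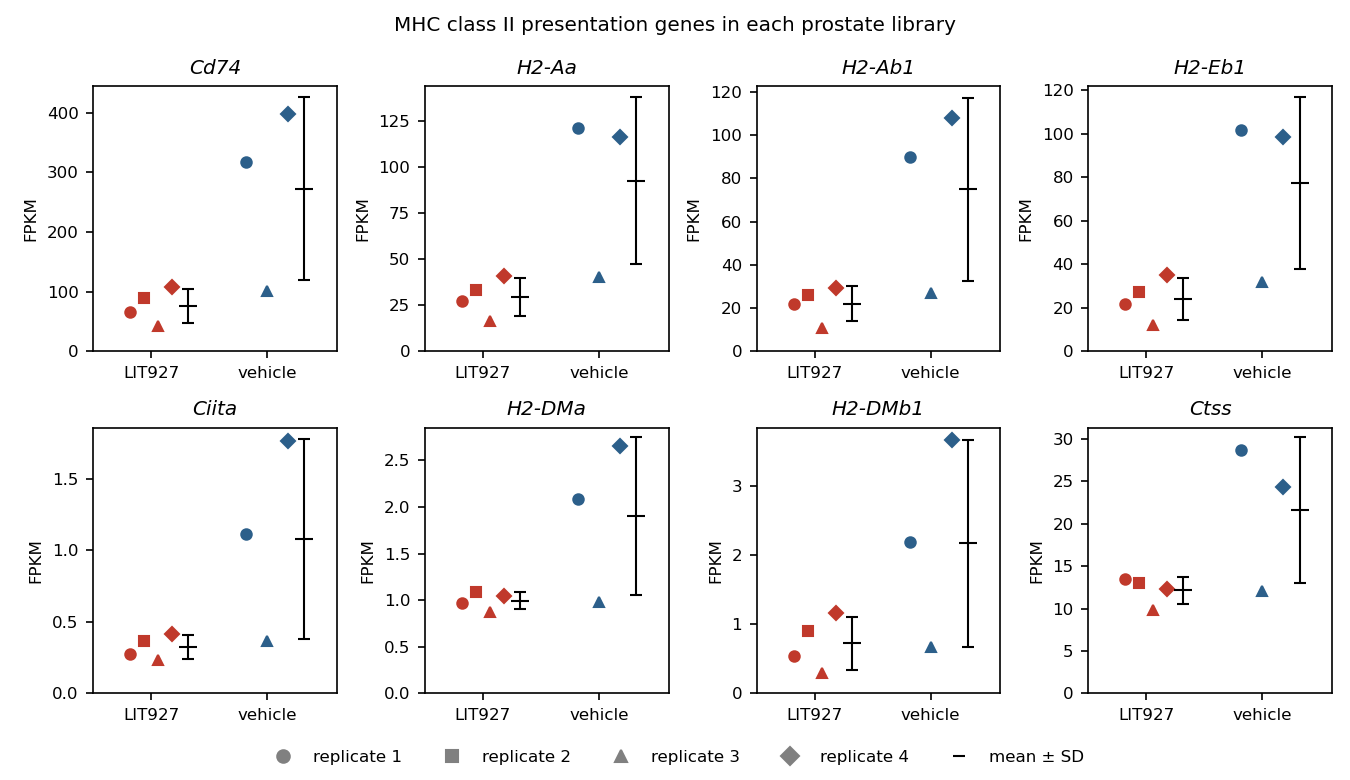
FPKM of each of the 8 class II genes (one panel each, linear axes from 0) in LIT927 libraries (left, red, n = 4) and vehicle libraries (right, blue, n = 3), with marker shape for the replicate and black bars for the mean ± SD. In all 8 panels vehicle replicates 1 and 4 are the 2 highest points, LIT927 replicate 3 is the lowest, and vehicle replicate 3 lies among the LIT927 points.

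The gene of the transactivator showed the same pattern at a much lower level. Ciita (chromosome 16, 10480059 to 10528418, plus strand) was at 0.276, 0.366, 0.233 and 0.417 FPKM in LIT927 replicates 1 to 4, and at 1.11, 0.369 and 1.76 FPKM in vehicle replicates 1, 3 and 4. These values rest on 73 to 142 fragments per LIT927 library and 122 to 608 per vehicle library. As a ratio of mean FPKM, Ciita with LIT927 was 0.299 of its level with vehicle, against 0.280 for Cd74. On the log2(FPKM + 1) scale, which compresses genes this low, the difference was -0.60 (SE 0.22, limma adjusted p = 0.998). It was -1.29 with a pseudocount of 0.1. An exon of Ciita overlaps one of Dexi on the opposite strand, and the sources used here do not say whether the authors counted by strand.

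The peptide exchange genes were near 1 FPKM. H2-DMa (chromosome 17, 34119541 to 34139101, plus strand) was at 0.974, 1.08, 0.872 and 1.05 FPKM in LIT927 replicates 1 to 4, and at 2.09, 0.986 and 2.65 FPKM in vehicle replicates 1, 3 and 4. It was the most even member across LIT927 libraries, with a coefficient of variation of 9.42%. Its partner H2-DMb1 (chromosome 17, 34153072 to 34160230, plus strand) was at 0.548, 0.906, 0.291 and 1.16 FPKM with LIT927, and at 2.20, 0.667 and 3.66 FPKM with vehicle. Both LIT927 replicates 2 and 4 exceeded vehicle replicate 3 for this pair of genes. The differences were -0.50 (SE 0.23) for H2-DMa and -0.78 (SE 0.36) for H2-DMb1, with a limma adjusted p of 0.998 for each. H2-DMb1 rests on 12 to 52 fragments per LIT927 library and 29 to 166 per vehicle library. Of its 50-base transcript windows, 22.7% also occur in its neighbour H2-DMb2, so fragments may have been shared between them or dropped. H2-DMa has an exon that overlaps Brd2 on the opposite strand, a gene at 35.6 ± 1.8 FPKM with LIT927 and 35.5 ± 7.9 FPKM with vehicle.

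Ctss, which encodes cathepsin S (chromosome 3, 95526786 to 95556403, plus strand), differed least between the groups as a ratio of means, at 0.561. It was at 13.5, 13.0, 9.87 and 12.3 FPKM in LIT927 replicates 1 to 4, and at 28.7, 12.1 and 24.3 FPKM in vehicle replicates 1, 3 and 4. Here 3 of the 4 LIT927 libraries exceeded vehicle replicate 3. The mean was 12.2 ± 1.6 FPKM with LIT927 and 21.7 ± 8.6 FPKM with vehicle, a difference of -0.71 in log2(FPKM + 1) (SE 0.30, limma adjusted p = 0.998).

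Set against all genes, no member passed at an adjusted p under 0.05 (0 of 8), and 0% of the 16019 genes did. At an unadjusted limma p under 0.05 there were 6 of 8 members, all with a lower mean, against 3.68% of all genes (589) in either direction and 2.96% with a lower mean. All 8 had a lower mean, as did 44.5% of all genes. A difference of -1 or lower was seen for 4 of 8, Cd74 and the class II chains, against 1.54% of all genes. Among genes with a mean of at least 1 FPKM it was 4 of 7 members, against 2.21%. The median difference over the 8 was -1.16, and over all genes it was 0.02. Since the members were chosen with earlier results of these data known, these comparisons with all genes are a description only. The groups overlapped for all 8 members, so none had every LIT927 library below every vehicle library, while 2.12% of all genes did, and 3.2% were separate in either direction. For single members, the exact two-sided permutation test over the 35 divisions of the libraries gave 0.0571 for Cd74, H2-Aa, H2-Ab1, H2-Eb1 and Ciita, 0.0857 for H2-DMa, 0.143 for H2-DMb1 and 0.114 for Ctss. The smallest p this test can give is 0.0286. After median-of-ratios scaling 2 of 8, Cd74 and H2-Aa, no longer overlapped, against 4.99% of all genes.

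Vehicle replicate 3, the library that sits with the LIT927 group, was 1 of the 2 with high uroplakin transcripts. The members were therefore also compared with the libraries split by uroplakin level. The other 5 libraries were not of 1 kind of tissue. The seminal vesicle gene Svs1 was at 25356 FPKM in vehicle replicate 4. In LIT927 replicates 1, 2 and 4 and vehicle replicate 1 it was at 38.8 to 243 FPKM. In the pair with high uroplakin transcripts it was at 11062.5 FPKM (LIT927 replicate 3) and 11985 FPKM (vehicle replicate 3). By Svs1, vehicle replicate 4 thus stood with that pair, and only vehicle replicate 1 with LIT927 replicates 1, 2 and 4. Between the pair with high uroplakin transcripts, LIT927 replicate 3 was below vehicle replicate 3 for 8 of 8 members, which held for 77.7% of all genes. Its level as a share of vehicle replicate 3 ran from 0.378 for H2-Eb1 to 0.884 for H2-DMa, and was 0.412 for Cd74. Among the other 5 libraries, LIT927 replicates 1, 2 and 4 were all below vehicle replicates 1 and 4 for 8 of 8 members, against 5.2% of all genes. There Cd74 averaged 87.6 ± 20.5 FPKM (SD, n = 3) with LIT927, against 358 FPKM with vehicle (n = 2). Both patterns together held for 8 of 8 members and for 4.21% of all genes. The split sets aside vehicle replicate 3, already seen to lie with the LIT927 group. Vehicle replicates 1 and 4 were the 2 highest libraries for 8 of 8 members. The count among the other 5 libraries was thus fixed beforehand and adds no support. The joint count adds only the order within the pair. The members also vary together, so they are not 8 separate observations. No p-value is attached to these counts, and the pair with high uroplakin transcripts has 1 library per group.

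The values turn on single libraries. Without vehicle replicate 3 the median difference was -1.62, and without vehicle replicate 4 it was -0.91. Without vehicle replicate 3 the difference was -0.87 for Ciita, -0.75 for H2-DMa, -1.19 for H2-DMb1 and -1.07 for Ctss. Without vehicle replicate 4 it was -0.36 for Ciita, -0.31 for H2-DMa and -0.45 for H2-DMb1. With library weights estimated from the residual spread, which gave 3.41 to vehicle replicate 3 and 0.181 to vehicle replicate 4, the median was -0.30.

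Within a library the class II chains kept a narrow proportion to Cd74. Class II chain genes are polymorphic between mouse strains, and with the strain not given, how far fragments of another haplotype would be lost in alignment to mm10 was not tested, which limits what the chains' levels and their shares of Cd74 mean. H2-Aa was 41.0%, 37.7%, 38.9% and 38.2% of the Cd74 FPKM in LIT927 replicates 1 to 4, and 38.2%, 39.6% and 29.2% in vehicle replicates 1, 3 and 4. H2-Ab1 lay between 25.4% and 32.9% over all 7 libraries, and H2-Eb1 between 24.8% and 33.0%. Over the same libraries Cd74 itself varied 9.45-fold between highest and lowest, so the chains moved in step with it to within 1.40-fold. Ciita was 0.350% to 0.553% of Cd74, a 1.58-fold range, and H2-DMb1 a 1.65-fold one.

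The remaining members were less tied to Cd74. Ctss was 20.3%, 14.6%, 23.5% and 11.4% of the Cd74 FPKM in LIT927 replicates 1 to 4, and 9.02%, 11.8% and 6.11% in vehicle replicates 1, 3 and 4. H2-DMa was 1.46%, 1.22%, 2.07% and 0.976% with LIT927, and 0.657%, 0.967% and 0.667% with vehicle. Both shares were lowest in vehicle replicates 1 and 4, where Cd74 was highest, and for H2-DMa the groups only just failed to meet, at 0.976% and 0.967%. These shares were not tested. After centring each gene's log2(FPKM + 1) on its own mean, the closest pair of members was H2-Aa with H2-Eb1, at a root mean square distance of 0.06 over the 7 libraries. The most distant pair was Cd74 with H2-DMa, at 0.75, a distance that also holds the compression of low genes on this scale.

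**Figure D2:**
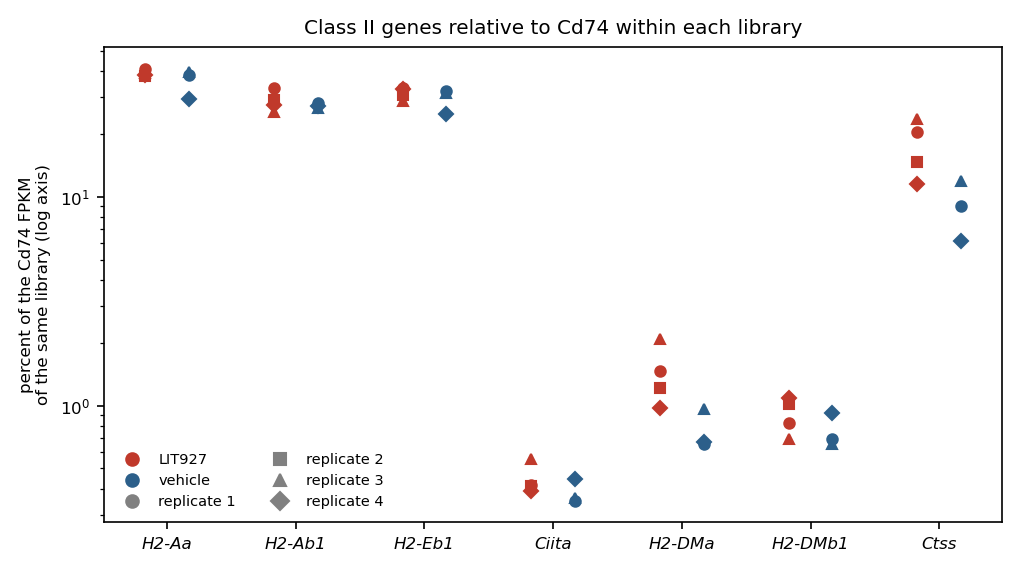
Level of 7 class II genes as a percent of the Cd74 FPKM of the same library (log axis), with LIT927 libraries in red on the left of each pair and vehicle libraries in blue on the right, and marker shape for the replicate. H2-Aa, H2-Ab1 and H2-Eb1 stay within 1.40-fold over the 7 libraries, while Ctss spans 3.84-fold and is highest in LIT927 replicate 3, at 23.5%.

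Other genes of the pathway, 38 measured of 40 listed symbols, gave a mixed picture: 25 had a lower and 13 a higher mean with LIT927. Of all genes 44.5% had a lower mean. None of the 38 passed limma's adjusted test in either direction (0 of 38, with 7 at an unadjusted p under 0.05, against 3.68% of all genes). The median difference was -0.13. The E alpha chain gene was listed as H2-Ea and as H2-Ea-ps, and neither symbol was among the measured genes. H2-DMb2, a second DM beta chain, was the one structural gene in this group above 1 FPKM. It was at 1.15, 1.43, 0.552 and 1.65 FPKM in LIT927 replicates 1 to 4, and at 4.73, 1.49 and 6.14 FPKM in vehicle replicates 1, 3 and 4, the library order of Cd74. H2-Oa and H2-Ob, whose product in B cells restrains H2-DM, averaged 0.116 ± 0.065 and 0.0863 ± 0.0710 FPKM with LIT927, and 0.369 ± 0.315 and 0.353 ± 0.264 FPKM with vehicle. H2-Eb2, an E beta-like gene, had 0 to 3 fragments per LIT927 library and 4 to 21 per vehicle library.

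Endosomal processing genes other than Ctss were split: 4 of 8 had a lower and 4 a higher mean, with a median difference of -0.01. Ifi30, the lysosomal thiol reductase that unfolds antigens, was at 34.3 ± 11.2 FPKM with LIT927 and 39.1 ± 11.4 FPKM with vehicle, a difference of -0.20 (95% interval -0.92 to 0.52). Lgmn, asparagine endopeptidase, was at 21.6 ± 11.2 FPKM with LIT927 and 19.5 ± 12.0 FPKM with vehicle. The cathepsin genes Ctsb, Ctsd, Ctsh, Ctsl and Ctsz and the cathepsin inhibitor gene Cst3 differed by between -0.32 for Ctsz and 0.34 for Ctsh, with intervals that all held 0. These genes are used in the lysosomes of many cell types, epithelium included. Ctsl, the cathepsin of invariant chain cleavage in mouse thymic epithelium, was at 40.8 ± 4.1 FPKM with LIT927 and 32.9 ± 7.9 FPKM with vehicle.

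The DNA-binding partners of CIITA had a lower mean in 2 of 7 and a higher one in 5 of 7, against a difference of -0.60 for Ciita. Of the RFX genes, Rfx5, Rfxap and Rfxank differed by 0.22, 0.03 and 0.21, and of the NF-Y genes, Nfya, Nfyb and Nfyc by -0.29, 0.16 and 0.27. Creb1 differed by -0.14. All 7 were between 0.886 and 8.01 FPKM in every library, and none was at an unadjusted limma p under 0.05. Of the genes needed to read class II promoters, Ciita had the most negative difference, and that ordering was not itself tested.

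Among inducers of Ciita, Ifng, which encodes interferon gamma, was close to the limit of detection. It had 0, 0, 0 and 1 fragments in LIT927 replicates 1 to 4, and 2, 0 and 12 fragments in vehicle replicates 1, 3 and 4, so its 12 fragments fell in the library with the highest Cd74. Irf1, which acts on the interferon-responsive Ciita promoter, was at 7.25 ± 1.53 FPKM with LIT927 and 9.99 ± 1.72 FPKM with vehicle. Irf8, a factor of dendritic cells and macrophages, was at 4.13 ± 0.69 FPKM with LIT927 and 6.27 ± 1.73 FPKM with vehicle. Over the 12 genes of this list 9 had a lower mean, against 44.5% of all genes, and 3 a higher one. The 3 were Jak1, Jak2 and Irf2, at differences of 0.07, 0.08 and 0.26.

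Costimulatory genes, whose products T cells need beside the class II peptide, were low. Cd86 was at 0.374 ± 0.139 FPKM with LIT927 and 0.864 ± 0.432 FPKM with vehicle, a difference of -0.42 (SE 0.17, limma adjusted p = 0.998). Cd80 was at 0.0253 ± 0.0116 FPKM with LIT927 and 0.0742 ± 0.0144 FPKM with vehicle, on 1 to 4 fragments per LIT927 library and 7 to 10 per vehicle library. Cd40 was at 0.167 ± 0.125 FPKM with LIT927 and 0.338 ± 0.193 FPKM with vehicle. Cd4, the T cell coreceptor for class II, was at 0.305 ± 0.177 FPKM with LIT927 and 1.02 ± 0.52 FPKM with vehicle, and Lag3, an inhibitory receptor that binds class II, at 0.252 ± 0.139 FPKM with LIT927 and 0.535 ± 0.210 FPKM with vehicle.

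**Figure D3:**
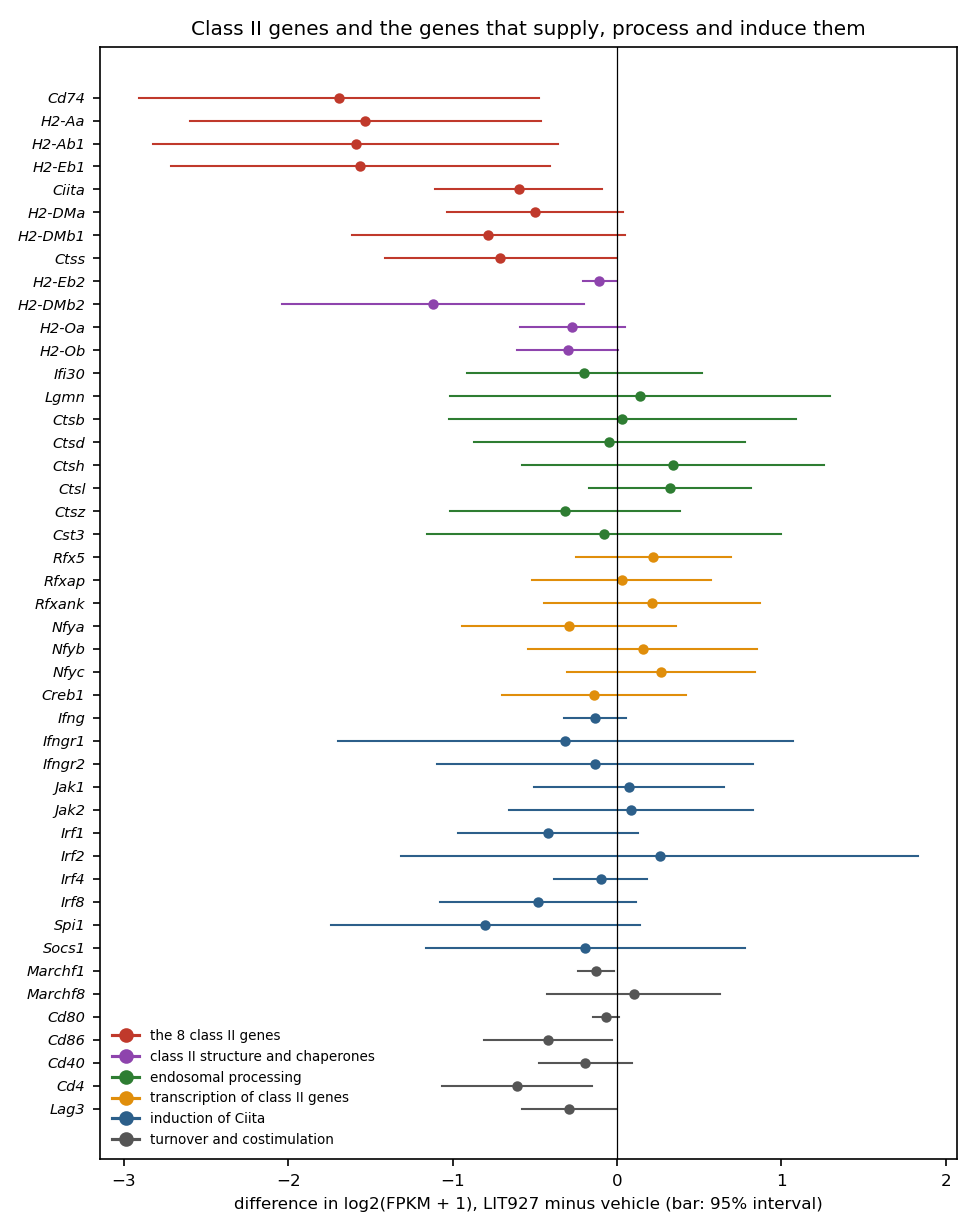
Difference in log2(FPKM + 1), LIT927 minus vehicle, for the 8 class II genes (red, top) and other genes of the pathway that are reported here, with points for the limma estimate and bars for its 95% interval. The class II chains and Cd74 lie between -1.69 and -1.53, while processing genes (green) and the DNA-binding factors (orange) scatter around 0.

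Of the members, H2-DMa, H2-DMb1, H2-Ab1, H2-Aa and H2-Eb1 lie in one stretch of 197.1 kb of chromosome 17, which with 50 kb on each side holds 14 measured genes. Of the 9 that are not members, 8 had a lower mean with LIT927, as did 44.5% of all genes. The one exception, Brd2, a bromodomain gene that takes no part in presentation, differed by 0.03 (SE 0.20, 95% interval -0.44 to 0.50) although it lies between H2-Oa and H2-DMa. Interspersed are genes that supply peptides to MHC class I: the immunoproteasome subunits Psmb8 and Psmb9 and the peptide transporter subunits Tap1 and Tap2. Their differences were -0.77 (SE 0.31), -0.57 (SE 0.25), -0.63 (SE 0.27) and -0.50 (SE 0.17).

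**Figure D4:**
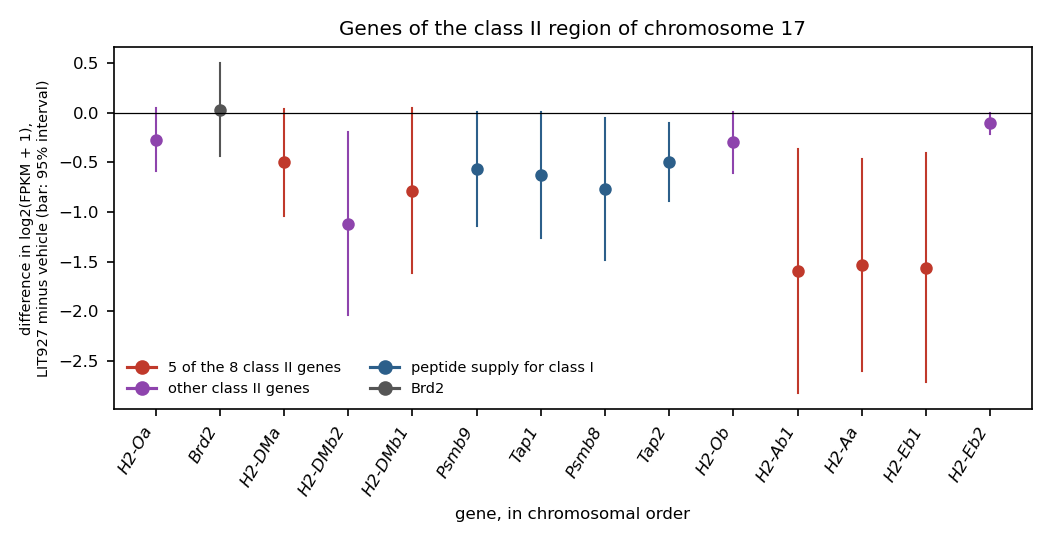
Difference in log2(FPKM + 1), LIT927 minus vehicle, for the 14 measured genes of the class II region of chromosome 17 in chromosomal order, with bars for the 95% interval. The lowest points are H2-Ab1, H2-Aa and H2-Eb1 at -1.59 to -1.53, and Brd2 is the only point above 0, at 0.03.

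MHC class I genes, the nearest counterpart, had a lower mean in 10 of 10 and a median difference of -0.50, with 3 of 10 at an unadjusted limma p under 0.05 and 0 of 10 past adjustment. Of all genes 44.5% had a lower mean and 3.68% were at an unadjusted limma p under 0.05. The order of libraries varied within the class I list. Vehicle replicates 1 and 4 stood above every other library for Tap1, Tap2, Psmb8, Psmb9 and Psmb10, as for the class II members. They did not for B2m, H2-K1, H2-D1, Tapbp or Nlrc5. B2m, the class I light chain, was at 3752, 3858, 4266 and 2855 FPKM in LIT927 replicates 1 to 4, and at 2320, 6433 and 9305 FPKM in vehicle replicates 1, 3 and 4. Vehicle replicate 1 thus had the lowest B2m and the second highest Cd74. The log2 ratio of Cd74 to B2m, with 1 added to each, was -5.64 ± 0.80 (SD, n = 4) with LIT927 and -4.46 ± 1.55 (SD, n = 3) with vehicle, a difference of -1.18 that was not distinguished from the spread (exact permutation p = 0.229, adjusted 0.229 over 5 ratios, two-sided).

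Markers of leukocytes mostly had lower means too, against 44.5% of all genes, and none was past the adjusted test. The 4 pan-leukocyte markers summed to 6.19 to 15.8 FPKM with LIT927 and 15.5 to 41.2 FPKM with vehicle, with a lower mean in 4 of 4. Macrophage and monocyte markers summed to 47.6 to 149 FPKM with LIT927 and 140 to 401 FPKM with vehicle, with a lower mean in 11 of 12. Dendritic cell markers, lower in 9 of 9, summed to 0.912 to 2.39 FPKM with LIT927 and 3.02 to 6.88 FPKM with vehicle, and 7 of the 9 stayed under 1 FPKM in every library. B cell markers, lower in 6 of 7, summed to 0.180 to 2.73 FPKM with LIT927 and 0.646 to 6.63 FPKM with vehicle, and the B cell gene Ms4a1 was at 0 in LIT927 replicate 3. T and NK cell markers, 7 of 7 lower, summed to 1.39 to 4.44 FPKM with LIT927 and 4.17 to 12.8 FPKM with vehicle, and neutrophil markers, 5 of 5 lower, to 0.200 to 4.86 FPKM with LIT927 and 5.03 to 7.68 FPKM with vehicle. LIT927 replicate 3 was the lowest library for all class II members and for each leukocyte sum except that of T and NK cells. Its T and NK cell sum was the highest of its group. That sum held 1.95 FPKM of Cd3g and 1.76 FPKM of Nkg7. Within the LIT927 group Cd3g, Cd3e, Cd8a and Nkg7 were highest in that library, and Cd3d, Ncr1 and Cd4 were not. Cd4, at 0.0898 FPKM there, was at its lowest of all libraries. The part of these cells in the class II levels was not tested.

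Stromal and epithelial markers also had mostly lower means, in library orders that matched the class II members only in part. Endothelial markers (5 of 5 lower) summed to 3.59 to 31.0 FPKM with LIT927 and 16.5 to 67.0 FPKM with vehicle. Fibroblast markers (6 of 6) summed to 59.4 to 210 FPKM with LIT927 and 79.5 to 439 FPKM with vehicle, smooth muscle markers (4 of 4) to 512 to 3513 FPKM with LIT927 and 1746 to 6019 FPKM with vehicle, and basal epithelial markers (4 of 4) to 23.2 to 42.7 FPKM with LIT927 and 29.0 to 97.8 FPKM with vehicle. LIT927 replicate 3 was the lowest of all libraries for the endothelial, fibroblast, smooth muscle and basal sums, as for the class II members. Vehicle replicate 1 was the highest for the endothelial, fibroblast and smooth muscle sums. Vehicle replicate 4, highest for 5 of 8 class II members, had the lowest fibroblast, endothelial and basal sums of the vehicle group. Luminal markers had a lower mean in 6 of 9, urothelial markers in 3 of 4 and seminal vesicle transcripts in 4 of 7, against 44.5% of all genes. No marker of any list passed limma's adjusted test (0 of 83, with 19 at an unadjusted p under 0.05, against 3.68% of all genes). The part of tissue make-up in the class II values was not tested.

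**Figure D5:**
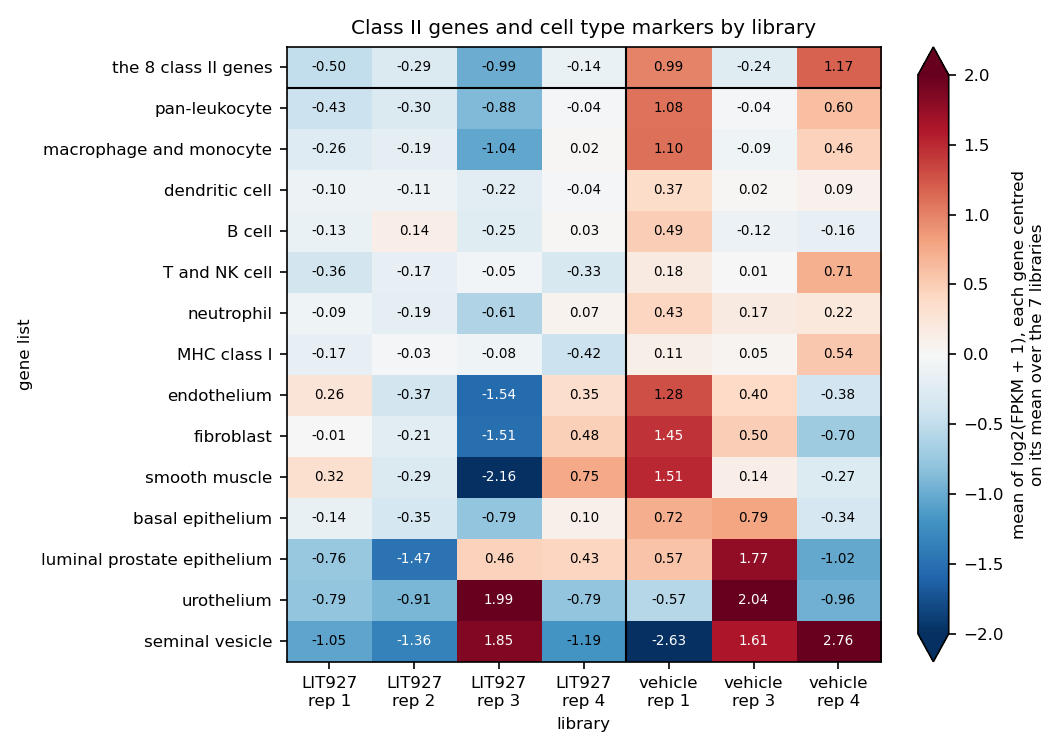
Mean log2(FPKM + 1) of each gene list in each library after centring every gene on its mean over the 7 libraries (colour and printed value; LIT927 libraries on the left, vehicle libraries on the right). The 8 class II genes are at 0.99 and 1.17 in vehicle replicates 1 and 4 and at -0.24 in vehicle replicate 3, and fibroblast markers are at 1.45, -0.70 and 0.50 in vehicle replicates 1, 4 and 3.

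Relative to the pan-leukocyte gene Ptprc (CD45), Cd74 varied less than on its own. The FPKM ratio of Cd74 to Ptprc was 101, 85.4, 92.2 and 96.4 in LIT927 replicates 1 to 4, and 98.3, 77.1 and 151 in vehicle replicates 1, 3 and 4. Vehicle replicate 1 lay inside the LIT927 range, vehicle replicate 3 below it and vehicle replicate 4 above it. Against Csf1r, the macrophage growth factor receptor gene, the ratio was 21.8, 29.3, 28.9 and 25.0 with LIT927, and 30.1, 23.9 and 64.4 with vehicle, with vehicle replicate 4 again the highest library. Against Cd79a, a B cell receptor subunit gene, it ran from 112 to 338 with LIT927 and from 134 to 2343 with vehicle. Against Flt3, the dendritic cell growth factor receptor gene, it ran from 1230 to 2331 with LIT927 and from 1955 to 2563 with vehicle.

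On the log2 scale with 1 added, the difference of these ratios was -0.82 for Ptprc, -0.70 for Csf1r, -1.59 for Flt3 and -1.42 for Cd79a. The exact permutation p was 0.0571, 0.0857, 0.0571 and 0.0286, and 0.0952, 0.107, 0.0952 and 0.0952 after adjustment over the 5 ratios (two-sided). None passed 0.05. Adding 1 matters here because these partners are low. With 0.01 added the difference for Ptprc was -0.17 (exact permutation p = 0.686) and that for Flt3 -0.51 (exact permutation p = 0.171). It was then -0.46 for Csf1r (exact permutation p = 0.286) and -1.21 for Cd79a (exact permutation p = 0.343).

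The 10 genes whose centred profile lay nearest to the mean profile of the members, among 11053 others with a mean of at least 1 FPKM, were H2-DMb2, Itgb2, Ms4a6d, Cybb, Coro1a, Ms4a6b, Gm12250, Gbp3, Il2rg and Fcer1g. Their root mean square distance over the 7 libraries was 0.05 for H2-DMb2 and 0.10 to 0.20 for the others, against a median of 0.84. Itgb2 encodes the beta chain of leukocyte integrins, and was at 0.977, 0.956, 0.502 and 1.58 FPKM in LIT927 replicates 1 to 4, and at 4.04, 1.20 and 4.78 FPKM in vehicle replicates 1, 3 and 4. Cybb encodes the catalytic subunit of the phagocyte NADPH oxidase, and was at 1.20 ± 0.50 FPKM with LIT927 and 3.31 ± 1.65 FPKM with vehicle. Gbp3, an interferon-induced guanylate-binding protein gene, was at 1.14 ± 0.34 FPKM with LIT927 and 3.85 ± 1.54 FPKM with vehicle. Il2rg encodes the common cytokine receptor gamma chain, Fcer1g the gamma chain of Fc receptors and Coro1a an actin-binding protein of leukocytes. Since the measure uses all 7 libraries, it holds the group difference as well as the spread within groups.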

How the data were processed

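The deposited values are FPKM, computed by the authors, 1 file per library. The file headers give only the word expression and a sample code, so the unit was inferred. Within each gene the deposited values step by a fixed amount that depends on the gene. The numbers in those codes differ in part from the replicate numbers of the labels, which are used here. Tools named in the submitters' processing notes are HISAT2, HTSeq and fastp, with build mm10. No version, setting, annotation or strandedness is given in the sources used here. Dividing by the steps gave whole fragments for 16019 of 16019 genes, at most 0.00353 from a whole number. Libraries were made with a VAHTS Universal library kit, per the labels' protocols.

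Groups follow the treatment in the labels. The test was limma (version 3.58.1, under R 4.3.3) with its trend option, on log2(FPKM + 1) of all genes, 7 libraries and no covariate. Differences are LIT927 minus vehicle, and the threshold was a Benjamini-Hochberg adjusted p of 0.05. Members, gene lists and the rule for nearest genes were chosen with earlier results of these data known. Coordinates and transcripts are from GENCODE M21 (GRCm38), promoters from RefSeq. Named genes are the members, the listed pathway genes and the 10 nearest profiles; examples among them were picked with values known. Some listed genes enter the counts but are not reported here by name. Code was checked on simulated data. Alternatives were other scalings, pseudocounts, a filter, voom on fragments, library weights, a replicate block and left-out libraries. Python 3.11.15, NumPy 2.4.6, pandas 2.3.3 and matplotlib 3.10.9 made tables and figures.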

Additional observations from a re-analysis of the deposited data

Results flagged for a closer look

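Of 53 sets of 4 LIT927 values checked for a library far from the rest, 8 had a gap over range above Dixon's 95% limit; chance flags about 1 in 20. One concerned a class II gene: Ciita as a percent of Cd74 was 0.553% in LIT927 replicate 3 against 0.388% to 0.414% in the others (gap over range 0.842). LIT927 replicate 3, high in uroplakin transcripts, was also the low library for Nfyb (0.834), Nfyc (0.853), Spi1 (0.864), Marchf1 (0.883) and Marchf8 (0.923), and the high one for Irf2, at 17.1 FPKM against 2.52 to 2.82 FPKM (0.979). In the vehicle group, replicate 3, the other library high in uroplakin transcripts, had 8.16 FPKM of Irf2. Ifng was flagged (1.0) because 1 fragment in LIT927 replicate 4 stood against 0 in the others, a gap of a single fragment.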

How the results depend on the processing

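Member differences were below 0 in all 143 values from 18 alternatives, and none was at an adjusted p under 0.05 (smallest 0.262). No setting called a member or another pathway gene. The median difference over the members, -1.16, ran from -1.62 to -0.91 without any one library, moved to -0.30 with library weights and, in combinations added after the data were seen, to -1.75 after median-of-ratios scaling without vehicle replicate 3 and -0.70 without vehicle replicate 4. The library weights called 466 genes of the whole table, against 0 otherwise, voom included; the cause was not tested. The differences between Cd74 and its 5 partner genes stayed negative throughout, and short of the threshold with pseudocounts of 0.1 and 0.01, added, like left-out libraries, after the data were seen. With libraries left out the exact test cannot go below 0.0667 or 0.1, so there it says nothing about the call. The filter left Ciita out. Whether same-numbered libraries of the groups pair was not settled. Their deviations correlated at 0.58, 0.76 and -0.17 for replicates 1, 3 and 4 across genes. Those of differently numbered libraries correlated at -0.71 to 0.64. The replicate block gave a median of -1.23 and 0 calls. With 3 vehicle libraries that differ 3.90-fold in Cd74, the interval for Cd74 reaches from -2.91 to -0.47. H2-DMb1, Ciita and Ifng are further limited by few fragments.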
